A study of Danio rerio with 6 samples.

Results

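The brain endothelial barrier genes described here are 7 genes, adgra2, reck, slc16a1a, mfsd2aa, mfsd2ab, plvapa and plvapb, of the 31701 genes in the deposited table. They were chosen by name, with earlier results of these data known, and 5 of the 7 stood in the table under these symbols. The other two were found by their gene identifiers, plvapa under the clone name si:dkey-208k22.3 and plvapb under the older symbol vsg1.

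Brain capillaries seal the brain from the blood. In mouse and zebrafish, Wnt7 ligands from the brain reach the endothelium through a receptor complex that contains the adhesion receptor Adgra2 (also called Gpr124) and the membrane-anchored glycoprotein Reck, and beta-catenin then drives vessel ingrowth and barrier properties. A sealed vessel carries solute carriers such as Mfsd2a, which in mouse moves lysolipids carrying docosahexaenoic acid, and the monocarboxylate transporter Slc16a1 (Mct1). Plvap forms the diaphragms of fenestrae and caveolae, marks permeable vessels and is lost from brain endothelium in mouse as the barrier matures.

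RNA was sequenced from endothelial cells sorted from AB strain zebrafish embryos at 48 hpf, with 2 libraries in each of 3 groups and every embryo carrying Tg(kdrl:EGFP)s843. The hhex overexpression (hhex OE) group also carried Tg(fli1a:tdTomato-2A-hhex)bns136, in which the endothelial fli1a promoter drives hhex, and was sorted for EGFP and tdTomato. The hhex mutants, which carry the in-frame s722 allele according to the study's methods, and their siblings were sorted for EGFP alone and told apart by the absence or presence of parachordal lymphangioblasts. Siblings labelled wild type can therefore include heterozygotes, and the gate differs between hhex OE and the other groups.

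The deposited values, which are read numbers divided by a size factor per library and rounded, summed to between 19133058 and 23381023 per library. In 3 libraries the steps between low values gave the worth of 1 read, and these held between 19649746 and 23615228 reads on genes. The targeted gene, hhex, had values of 764 and 925 in hhex OE, 613 and 1157 in mutants and 204 and 279 in siblings. RNA from an in-frame allele is still counted, so no loss of hhex RNA can be looked for to check the mutant label. Both mutant libraries were, however, above both sibling libraries. From these same sequencing data the study proposes that hhex can lower its own expression. It also saw more endothelial hhex RNA in mutants by in situ hybridization at an earlier stage. The mutant values lie in the direction of the in situ result, which bears on the label but does not show the genotype of the embryos. They are no separate check of the proposal, which rests in part on them. In all 6 libraries 10 of 10 endothelial markers, among them the transcription factor genes erg and fli1a and the receptor genes tek and tie1, were above 0. So were all neural and glial, myeloid, erythroid and epidermal markers found, so this alone does not identify the sorted cells. The summed value of the 10 endothelial markers was 37097 and 32124 in hhex OE, 11604 and 32249 in mutants and 15688 and 26127 in siblings. Replicate 1 of the mutants and replicate 1 of the siblings thus held the least endothelial RNA. In bulk samples fewer cells of a type and less RNA per cell cannot be told apart.

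For each comparison, log2(value + 1) was fitted with limma over the 20900 genes whose mean reached at least 5, with Benjamini-Hochberg adjustment over all of them. All 7 members passed this filter on low values. Between hhex OE and siblings, 5 of 7 members (adgra2, reck, slc16a1a, plvapa and plvapb) lay higher in both hhex OE libraries than in both sibling libraries, whereas 26.9% of all genes did so. The same held for 10 of 10 endothelial markers, at a median log2 fold change of 0.89. One member, mfsd2aa, lay lower in both, against 27.0% of all genes, and mfsd2ab overlapped. The median log2 fold change of the 7 genes was 1.15, with a median of 0.022 over all genes. None of the 7 passed an adjusted p of 0.05 (between 0.305 and 0.875 from limma), nor did any other gene. At an unadjusted p under 0.05 there was 1 of 7 members higher, slc16a1a, against 6.23% of all genes, and 0 of 7 lower, against 8.77%. Permuting 2 libraries against 2 gives no exact two-sided p under 0.3333 for any gene. The study tested the read numbers of these libraries with DESeq2 and did report genes that differed. Among them were hhex, sox18 and cdh5 between hhex OE and siblings, and hhex between mutants and siblings. The absence of calls here therefore belongs to this limma fit.

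**Figure D1:**
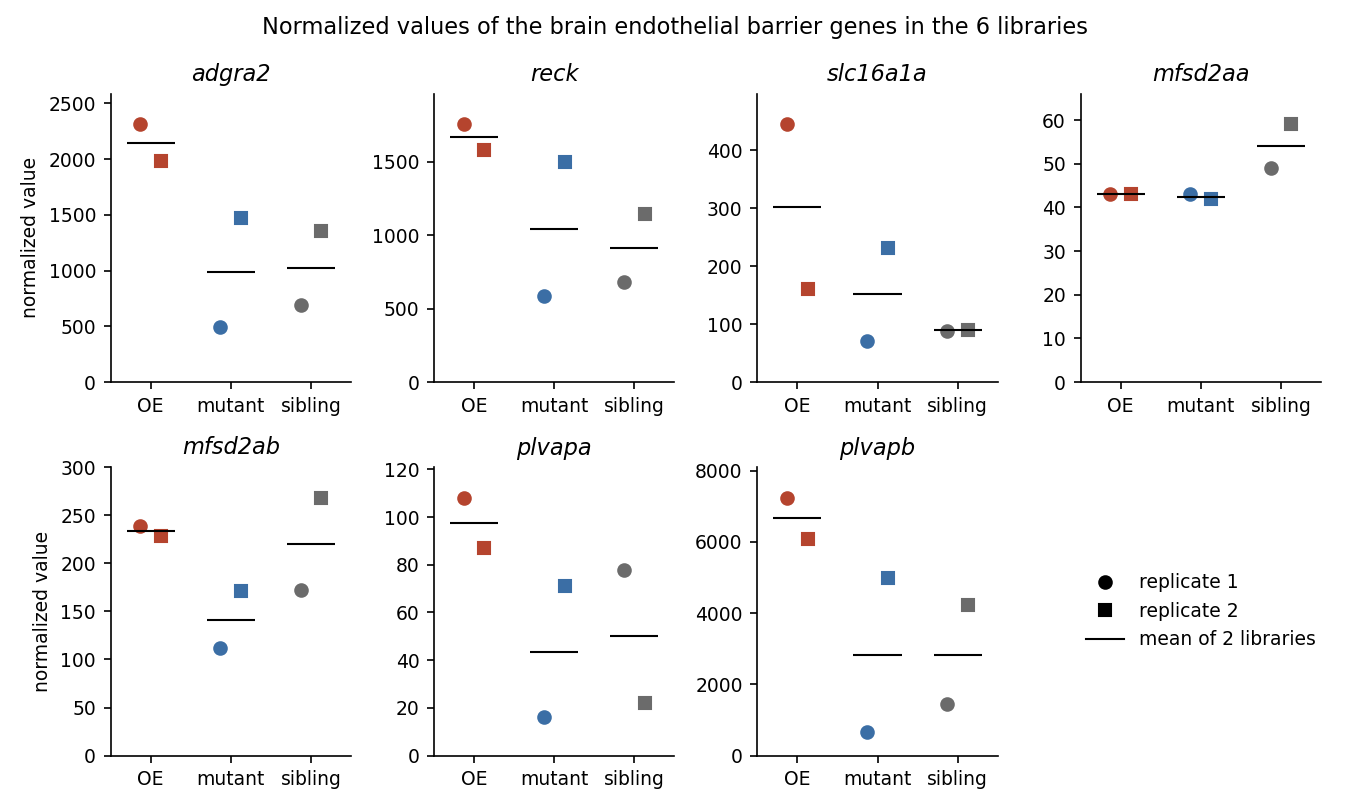
Deposited normalized values of the 7 genes (y axes start at 0) in hhex OE, hhex mutant and sibling libraries, with replicate 1 as circles, replicate 2 as squares and the group mean as a line. For adgra2, reck, slc16a1a, plvapa and plvapb both hhex OE points lie above both sibling points, while the 2 mutant points lie far apart for these genes.

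The first of the receptor components, adgra2 (ENSDARG00000076994, GRCz10 chromosome 8, 37990927 to 38126777, minus strand) had values of 2311 and 1986 in hhex OE, 494 and 1475 in mutants and 689 and 1353 in siblings. Both hhex OE libraries were above every other library, and the mutant libraries lay on either side of the sibling ones. The log2 fold change of adgra2 was 1.15 between hhex OE and siblings (standard error 0.50, limma adjusted p = 0.336) and 1.33 between hhex OE and mutants (standard error 0.50, limma adjusted p = 0.248). The mutants differed from siblings by -0.18, less than the standard error of 0.50. With a library left out, adgra2 ranged from 0.66 without sibling replicate 1 to 1.64 without sibling replicate 2 for hhex OE over siblings.

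The gene reck (ENSDARG00000090039, chromosome 24, 336750 to 373416, plus strand) encodes the partner that binds Wnt7 and, first described in mammals, restrains matrix metalloproteinases. Its values were 1754 and 1583 in hhex OE, 584 and 1496 in mutants and 685 and 1146 in siblings. The 6 libraries ranked in the same order as for adgra2, and the second mutant library came close to hhex OE. The log2 fold change of reck was 0.91 between hhex OE and siblings (standard error 0.43, limma adjusted p = 0.360), 0.83 between hhex OE and mutants and 0.077 between mutants and siblings. Leaving out sibling replicate 1 gave reck 0.54 against siblings and leaving out sibling replicate 2 gave 1.28, and against mutants the values were 0.16 without mutant replicate 1 and 1.51 without mutant replicate 2.

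Because both proteins act in 1 complex, the ratio of adgra2 to reck was taken within each library, where the scaling of the library cancels. The log2 ratio was 0.40 and 0.33 in hhex OE, -0.24 and -0.020 in mutants and 0.0084 and 0.24 in siblings. The 3 groups therefore did not overlap in this ratio, with hhex OE highest and mutants lowest. The difference was 0.24 between hhex OE and siblings, -0.25 between mutants and siblings and 0.49 between hhex OE and mutants, each with an exact permutation p of 0.3333, the smallest this design allows (adjusted p = 0.6 over 9 ratio tests). Of these 9 comparisons, 5 were without overlap, the 3 given here among them. Mutants and siblings came close, at -0.020 and 0.0084 in their nearest libraries. No ratios of genes outside the 7 members were taken, so no share over other gene pairs can be given. The ratio and the summed endothelial markers were both highest in hhex OE replicate 1 and lowest in mutant replicate 1. Mutant replicate 2, however, had more of these markers than sibling replicate 2 and a lower ratio. A link between the ratio and the markers was not tested.

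Among the transporters, slc16a1a (ENSDARG00000016963, chromosome 6, 48979549 to 49050366, plus strand), which encodes a carrier of lactate, pyruvate and ketone bodies, had values of 445 and 161 in hhex OE, 71 and 232 in mutants and 89 and 90 in siblings. The sibling libraries were almost identical, whereas the hhex OE libraries differed by 2.76-fold and the mutant libraries by 3.27-fold. Its log2 fold change of 1.57 between hhex OE and siblings was the largest of the 7 (standard error 0.62, unadjusted p = 0.0344, limma adjusted p = 0.305). It was 0.84 without hhex OE replicate 1 and 2.30 without hhex OE replicate 2. The hhex OE and mutant groups overlapped, at a log2 fold change of 1.05 (limma adjusted p = 0.404), and between mutants and siblings the value was 0.52. The paralog slc16a1b (ENSDARG00000068572) had values of 147 and 198 in hhex OE, 175 and 182 in mutants and 156 and 242 in siblings. It overlapped between hhex OE and siblings, at a log2 fold change of -0.19 (standard error 0.31).

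The lysolipid transporter genes differed from each other. For mfsd2ab (ENSDARG00000035909, chromosome 19, 31280532 to 31296741, plus strand) the values were 239 and 228 in hhex OE, 112 and 171 in mutants and 172 and 268 in siblings. The hhex OE libraries lay between the sibling libraries, and both mutant libraries were below both, the first by a wide gap and the second by 1 unit. The log2 fold change of mfsd2ab was 0.12 between hhex OE and siblings (standard error 0.33, 95% interval -0.63 to 0.87), -0.63 between mutants and siblings (standard error 0.33, limma adjusted p = 1) and 0.75 between hhex OE and mutants (standard error 0.33, limma adjusted p = 0.284). Without sibling replicate 1 the first of these was -0.20 and without sibling replicate 2 it was 0.44.

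Its paralog mfsd2aa (ENSDARG00000030630, chromosome 13, 35766544 to 35828850, plus strand) varied least. It had values of 43 and 43 in hhex OE, 43 and 42 in mutants and 49 and 59 in siblings. Both hhex OE and both mutant libraries were lower than the sibling libraries, with log2 fold changes of -0.32 (95% interval -1.20 to 0.57) and -0.33 (95% interval -1.22 to 0.56) that were smaller than their standard error of 0.38. These 2 comparisons share the sibling libraries. The gene mycla lies on the opposite strand within the span of mfsd2aa, and the strand setting of the counting is not given in the sources used here. The log2 ratio of mfsd2aa to mfsd2ab was -2.45 and -2.38 in hhex OE, -1.36 and -2.0 in mutants and -1.79 and -2.16 in siblings. It was lower in both hhex OE libraries than in all other libraries, by 0.44 against siblings (exact permutation p = 0.3333).

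Of the fenestral diaphragm genes, plvapb (ENSDARG00000045003, chromosome 11, 6046487 to 6051235, minus strand) had values of 7231 and 6084 in hhex OE, 678 and 4995 in mutants and 1444 and 4216 in siblings. The hhex OE libraries were the highest of the 6, and replicates differed by 7.37-fold in mutants and 2.92-fold in siblings but only 1.19-fold in hhex OE. The log2 fold change of plvapb was 1.43 between hhex OE and siblings (standard error 0.85, limma adjusted p = 0.440), -0.42 between mutants and siblings (standard error 0.85) and 1.85 between hhex OE and mutants (standard error 0.85, limma adjusted p = 0.307). Leaving out mutant replicate 1 gave 0.41 for hhex OE over mutants, and leaving out mutant replicate 2 gave 3.29. Against siblings, leaving out sibling replicate 1 gave 0.65 and leaving out sibling replicate 2 gave 2.199.

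The paralog plvapa (ENSDARG00000076972, chromosome 2, 24709801 to 24713436, minus strand) had values of 108 and 87 in hhex OE, 16 and 71 in mutants and 78 and 22 in siblings. It was 3.55-fold higher in sibling replicate 1 than in sibling replicate 2, where plvapb went the other way. The log2 fold change of plvapa was 1.20 between hhex OE and siblings (standard error 0.78, limma adjusted p = 0.470) and 1.49 between hhex OE and mutants (standard error 0.78, limma adjusted p = 0.358). Against siblings, leaving out sibling replicate 1 gave 2.09 and leaving out sibling replicate 2 gave 0.31. The log2 ratio of plvapa to plvapb was -6.05 and -6.11 in hhex OE, -5.32 and -6.12 in mutants and -4.19 and -7.52 in siblings, so that the groups overlapped in every comparison.

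**Figure D2:**
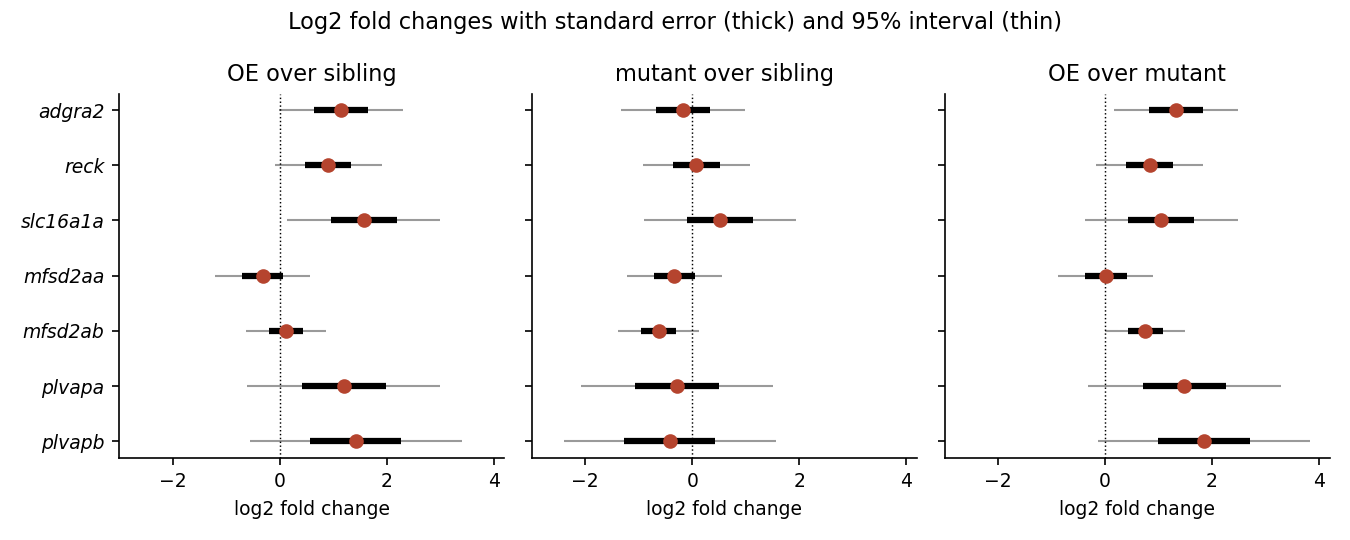
Log2 fold changes from limma (x axes) of the 7 genes for hhex OE over siblings, mutants over siblings and hhex OE over mutants, with the standard error as a thick line and the 95% interval as a thin line. For hhex OE over siblings the interval of slc16a1a, at 0.15 to 2.99, lies above 0 and that of adgra2, at -0.014 to 2.31, just includes it.

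Between hhex OE and mutants, 5 of 7 members (mfsd2ab, plvapa, plvapb, adgra2 and reck) were higher in both hhex OE libraries, against 24.1% of all genes, and 0 of 7 were lower in both, against 24.6%. Of the 10 endothelial markers, 5 were higher in both and 0 lower, at a median log2 fold change of 0.91. The median log2 fold change of the 7 members was 1.05, with 0.020 over all genes, and their adjusted p-values from limma lay between 0.248 and 0.987. At an unadjusted p under 0.05 were 1 of 7 higher, adgra2, against 8.68% of all genes, and 0 of 7 lower, against 8.90%. Mutants set against siblings had 0 of 7 members higher in both mutant libraries (13.3% of all genes) and 2 of 7, mfsd2aa and mfsd2ab, were lower in both (13.4%), with all adjusted p-values at 1 from limma and 0 of 7 at an unadjusted p under 0.05 in either direction (1.23% of all genes higher and 2.17% lower). The mutant libraries straddled the sibling range for adgra2, reck, slc16a1a and plvapb. Mutant replicate 1 was the lowest of the 6 libraries for 6 of the 7 genes, and without it 4 of 7 lay above both sibling libraries, against 34.5% of all genes in the same comparison of 1 library with 2. Without mutant replicate 2, the log2 fold change between hhex OE and mutants was 2.11 for adgra2, 1.51 for reck and 2.53 for plvapa. The mutant library then left, replicate 1, had the lowest endothelial marker sum of the 6 libraries (11604). Without mutant replicate 1 the same values were 0.54 for adgra2, 0.16 for reck and 0.44 for plvapa. Each of these values rests on 1 mutant library.

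When only the 4 libraries of hhex OE and siblings were fitted, 841 genes passed an adjusted p of 0.05 in limma, 1.88% of all genes higher and 2.15% lower. None of the 7 members was among them. The nearest were adgra2 (adjusted p = 0.0683), reck (adjusted p = 0.0700) and slc16a1a (adjusted p = 0.0786), with standard errors of 0.30, 0.25 and 0.43 in that limma fit.

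The levels of adgra2, reck and plvapb followed the endothelial marker level of the libraries closely, with Pearson's r between 0.991 and 0.994. The endothelial marker level, taken as the median over the 10 markers of log2 values centred on each gene's mean, was 0.72 and 0.52 in hhex OE, -1.13 and 0.42 in mutants and -0.66 and 0.094 in siblings. On the same scale adgra2 was 0.93 and 0.72 in hhex OE, -1.29 and 0.29 in mutants and -0.81 and 0.16 in siblings. The reck gene was 0.66 and 0.51 in hhex OE, -0.93 and 0.43 in mutants and -0.70 and 0.042 in siblings, within 0.205 of the marker level in every library. For plvapb the spread was wider than that of the markers, at 1.22 and 0.97 in hhex OE, -2.197 and 0.68 in mutants and -1.11 and 0.44 in siblings. The other members followed the markers less closely, with r = 0.83 for slc16a1a, 0.78 for mfsd2ab and 0.65 for plvapa. For plvapa the difference from the marker level was 1.25 in sibling replicate 1 and -1.29 in sibling replicate 2. By contrast, mfsd2aa did not follow the markers (r = -0.13).

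With the libraries rescaled to the 10 markers, the log2 fold change between hhex OE and siblings was 0.67 for slc16a1a, 0.52 for plvapb, 0.30 for plvapa, 0.24 for adgra2 and 0.0047 for reck. It was -0.78 for mfsd2ab and -1.20 for mfsd2aa, while the median of all genes moved to -0.85. The mfsd2ab value thereby changed its direction, and reck came to lie at the level of the markers. All 7 adjusted p-values were between 0.550 and 0.998 in limma on this scale. The rescaled values for hhex OE over mutants were 0.87 for plvapb, 0.53 for plvapa and 0.35 for adgra2, and those of reck, mfsd2ab and mfsd2aa were below 0. The study reported endothelial markers as modulated by hhex overexpression, so this scale may also take out a change made by hhex. This was not tested.

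**Figure D3:**
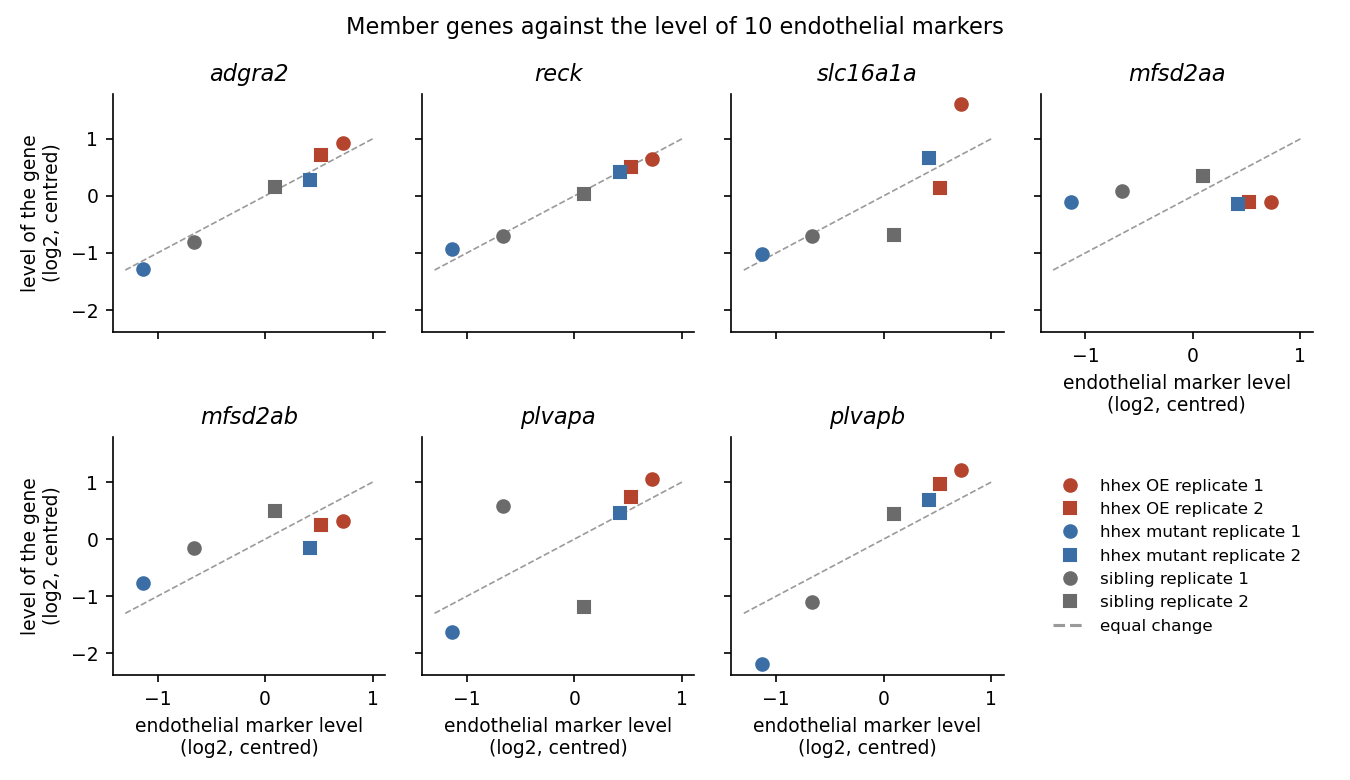
Level of each of the 7 genes (y axis, log2 value relative to its mean over the 6 libraries) against the level of 10 endothelial markers (x axis, same scale), with colours for groups, symbols for replicates and a dashed line for equal change. The points of reck lie within 0.205 of the line, those of plvapb are steeper, and those of mfsd2aa are flat.

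Other cell types also differed between the libraries. The 9 neural and glial markers found, all above 0, summed to 2676 and 2069 in hhex OE, 1670 and 729 in mutants and 1767 and 968 in siblings. The 10 mural cell markers found summed to 2845 and 3067 in hhex OE, 6837 and 3335 in mutants and 5098 and 4222 in siblings, with 1 marker at 0 in 1 hhex OE library. The most abundant of these markers was the smooth muscle myosin gene myh11a. The 9 other markers summed to 1759 and 1426 in hhex OE, 1342 and 1112 in mutants and 993 and 1145 in siblings. Without myh11a the order thus turned, with both hhex OE libraries above all others. The 8 myeloid and microglial markers, all above 0, summed to 1777 and 9478 in hhex OE, 10750 and 13114 in mutants and 8139 and 8684 in siblings. The 6 epidermal markers, all above 0, summed to 6562 and 7410 in hhex OE, 3761 and 735 in mutants and 5305 and 2175 in siblings. Neural and epidermal sums, like the mural sum without myh11a, were thus higher in both hhex OE libraries than in all others. The 6 muscle markers summed to 4079 and 10284 in hhex OE, 5839 and 3907 in mutants and 20132 and 13142 in siblings, highest in both sibling libraries, with 1 marker at 0 in both mutant libraries. The 7 erythroid markers, all above 0, summed to 3816 and 2893 in hhex OE, 5291 and 4139 in mutants and 5171 and 3294 in siblings. The 8 neural crest and cartilage markers, 1 of them at 0 in every library, summed to 1264 and 3278 in hhex OE, 877 and 389 in mutants and 1059 and 1710 in siblings. Neither of these last lists separated hhex OE from siblings by its sum. By the median of centred log2 values, however, the neural crest and cartilage list was higher in both hhex OE libraries than in all others. That median was 0.55 and 0.46 in hhex OE, -0.066 and -1.01 in mutants and 0.21 and -0.045 in siblings. The 6 liver markers summed to no more than 288 in any library, and 1 of them was at 0 in both mutant libraries. The part of these cells in the values of the 7 genes was not tested.

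The genes whose pattern over the 6 libraries was most like that of each member are given as a description. The endothelial marker level also varied over these libraries. The genes were ranked by Pearson's r of log2(value + 1) among 10213 named genes with a mean of at least 50. For plvapb these were mmp15a, a membrane-bound matrix metalloproteinase (r = 0.9992), egfl7, a secreted endothelial factor that is itself 1 of the 10 markers (r = 0.9988), and lnx2b (r = 0.9985). For adgra2 they were ARHGEF25, exoc6 and wwc3, with r between 0.9988 and 0.9990, and for reck they were anxa3b, rasa1b and ftr82, with r between 0.9989 and 0.9991. For slc16a1a the nearest were efs, rab2a and snx11 (r = 0.994 to 0.990), for mfsd2ab otud7b, lrrc32 and hdac9b (r = 0.998 to 0.993), for plvapa smad3b, exoc4 and tmem115 (r = 0.996 to 0.987) and for mfsd2aa ppip5k2, aldh3a2b and filip1b (r = 0.982 to 0.963). Among the members themselves, r was 0.988 for plvapb and adgra2, 0.986 for adgra2 and reck, 0.622 for plvapa and plvapb and 0.460 for mfsd2aa and mfsd2ab.

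Beyond the 7 members, 88 further genes were read in 5 lists, of which 84 were found and 79 passed the filter on low values. The lists were named for the barrier but also hold genes not particular to it, such as apc, axin1 and cdh5. None of the 79 passed an adjusted p of 0.05 in any comparison in limma with all 6 libraries, where the smallest was 0.191 between hhex OE and siblings, 0.102 between hhex OE and mutants and 1 between mutants and siblings. With only the 4 libraries of hhex OE and siblings, 11 of 79 were higher and 2 of 79 lower at an adjusted p of 0.05 in limma, against 1.88% and 2.15% of all genes. The lists were chosen with earlier results of these data known, so these shares are a description and not a test. The 11 were slc2a1a, slco1c1, slc7a5, abcb4, abcg2a, lef1, axin2, foxf2a, foxf2b, foxc1a and cavin2b, and the 2 were slc38a5a and slc3a2b.

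Wnt and beta-catenin signalling had 22 tested genes, with a median log2 fold change of 0.52 between hhex OE and siblings, and 13 of 22 were higher in both hhex OE libraries and 1 lower, against 26.9% and 27.0% of all genes. The 3 most abundant were apc, a scaffold of the beta-catenin destruction complex (0.58), ctnnb1, which encodes beta-catenin (0.44), and the Wnt co-receptor gene lrp5 (0.25), and their limma adjusted p-values lay between 0.349 and 0.579. The following genes were chosen after their values were seen. The transcription factor gene lef1, a partner and target of beta-catenin, had values of 1217 and 742 in hhex OE, 179 and 434 in mutants and 319 and 324 in siblings (log2 fold change 1.56 between hhex OE and siblings, standard error 0.42, limma adjusted p = 0.222). The feedback target axin2 had 574 and 583 in hhex OE, 212 and 406 in mutants and 223 and 308 in siblings (1.14, standard error 0.34, limma adjusted p = 0.244). Both were higher in each hhex OE library than in every other library. The ligand gene wnt7aa went the other way, with 67 and 68 in hhex OE, 117 and 122 in mutants and 145 and 133 in siblings (-1.03, standard error 0.29, limma adjusted p = 0.229). Wnt7 ligands are made by neural cells, and the wnt7aa values come from cells sorted as endothelial. The neural and glial marker sum was higher in both hhex OE libraries than in all others, where wnt7aa was lower. The source of the wnt7aa RNA was not tested. Other genes of this list overlapped between hhex OE and siblings, among them tcf7, sp5l and apcdd1l. For tcf7 the values were 75 and 122 in hhex OE, 408 and 150 in mutants and 147 and 119 in siblings (-0.46). The low-valued sp5l (25 and 9 in hhex OE, 9 and 4 in siblings) was at 1.19. Also low, apcdd1l (10 and 14 in hhex OE, 25 and 2 in siblings) was at 0.54.

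The 23 barrier transporters had a median log2 fold change of 0.63 between hhex OE and siblings, with 12 of 23 higher and 6 of 23 lower in both hhex OE libraries (26.9% and 27.0% of all genes), the share that was lower being near that of all genes. The 3 most abundant were the amino acid transporter gene slc38a5b (-0.077), abcg2a, which encodes an efflux pump (1.35), and slc3a2b, which encodes the heavy chain of amino acid exchangers (-1.11, limma adjusted p = 0.194). The largest value of all 79 genes was that of the glucose transporter gene slc2a1a (Glut1), a marker of barrier endothelium in zebrafish, also chosen after its values were seen. It had values of 877 and 325 in hhex OE, 20 and 202 in mutants and 41 and 33 in siblings, a log2 fold change of 3.82 (standard error 0.94, limma adjusted p = 0.208). Both hhex OE libraries were above all others, the first far above, and the groups of mutants and siblings overlapped. The more abundant paralog slc2a1b had 842 and 460 in hhex OE, 231 and 466 in mutants and 216 and 338 in siblings. Its log2 fold change was 1.20 between hhex OE and siblings (standard error 0.43, limma adjusted p = 0.278), and hhex OE overlapped the mutants. The thyroid hormone transporter gene slco1c1 had 579 and 222 in hhex OE, 34 and 246 in mutants and 66 and 85 in siblings (2.24, standard error 0.83). The large amino acid transporter gene slc7a5 had 776 and 385 in hhex OE, 123 and 285 in mutants and 206 and 184 in siblings (1.48, standard error 0.45, and 0.98 without hhex OE replicate 1). The efflux pump gene abcb4 had 882 and 518 in hhex OE, 107 and 660 in mutants and 173 and 203 in siblings (1.85, standard error 0.72). For slc2a1a, slco1c1, slc7a5 and abcb4, as for slc16a1a, hhex OE replicate 1 was above hhex OE replicate 2, while mutant replicate 2 was above both sibling libraries. This order is not particular to transporters, since adgra2, reck, plvapb and the endothelial marker level had it too. Mutant replicate 2 was above both sibling libraries for 34.5% of all genes. In the other direction, slc38a5a, an amino acid transporter gene, had 123 and 156 in hhex OE, 512 and 315 in mutants and 649 and 374 in siblings (-1.82, standard error 0.35, limma adjusted p = 0.191).

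The 8 barrier transcription factor genes tested had a median of 1.25, with 5 higher in both hhex OE libraries than in both sibling libraries and 0 lower (26.9% and 27.0% of all genes). The forkhead gene foxf2a, known from the mural cells and endothelium of brain vessels, had 242 and 193 in hhex OE, 29 and 46 in mutants and 63 and 76 in siblings (1.63, standard error 0.36, limma adjusted p = 0.192), with the 3 groups apart. Its paralog foxf2b, chosen after its values were seen, had 118 and 66 in hhex OE, 9 and 27 in mutants and 11 and 19 in siblings (2.53, standard error 0.65, limma adjusted p = 0.212). The more abundant foxc1b (-0.16) and foxc1a (0.96) differed from each other in direction. At a mean of at least 50 the median of the list was 0.40.

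The 16 junction genes had a median of 0.73, with 10 higher and 0 lower in both hhex OE libraries (26.9% and 27.0% of all genes), and 2 of the 16, esama and cldn5b, are also among the 10 endothelial markers. Of these cdh5, which encodes the endothelial cadherin, was at 0.79, cgnl1, a junctional adaptor, at 0.78 and tjp1a, a tight junction scaffold, at 0.68. Without sibling replicate 1 these were 0.48, 0.23 and 0.28. The brain endothelial claudin gene cldn5a, chosen after its values were seen, had 678 and 225 in hhex OE, 102 and 371 in mutants and 104 and 189 in siblings (1.47, standard error 0.69, limma adjusted p = 0.353), and its value was 0.68 without hhex OE replicate 1 and 2.27 without hhex OE replicate 2. The 10 genes of caveolae and vesicle coats, the structures in which Plvap also sits, had a median of 0.51, with 6 higher and 2 lower (26.9% and 27.0% of all genes). Here cav1, the main caveolar coat gene, was at 0.83, and the cavin genes cavin2b and cavin1b were at 0.88 and 0.89. With a library left out cav1 ranged from 0.50 to 1.17.

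On the scale set to the endothelial markers, where the median of all genes was -0.85, the list medians between hhex OE and siblings were 0.36 for transcription factors, -0.18 for junction genes, -0.27 for transporters, -0.38 for Wnt and beta-catenin signalling and -0.39 for caveolae. The single genes slc2a1a (2.92), foxf2b (1.65), slco1c1 (1.34), abcb4 (0.94), foxf2a (0.73) and lef1 (0.66) stayed above 0 on it, where their limma adjusted p-values ran between 0.153 and 0.677. So did slc7a5 (0.58), cldn5a (0.57), abcg2a (0.45), slc2a1b (0.30), axin2 (0.235) and foxc1a (0.056). The lowest of the named list genes were slc38a5a (-2.72), slc3a2b (-2.01) and wnt7aa (-1.92).

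**Figure D4:**
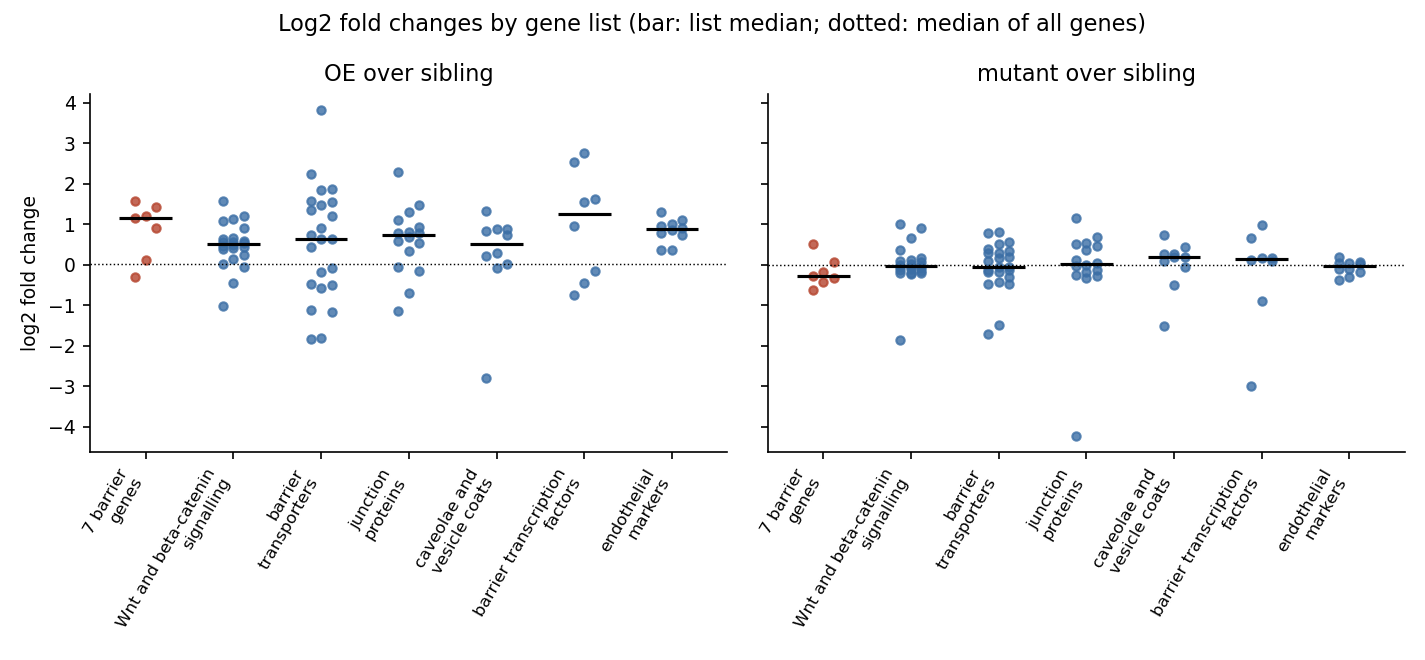
Log2 fold changes (y axis) of the 7 barrier genes, of the tested genes of 5 barrier lists and of 10 endothelial markers, for hhex OE over siblings and mutants over siblings, with 1 point per gene, a bar for the list median and a dotted line for the median of all genes. For hhex OE over siblings the highest point is slc2a1a at 3.82, and for mutants over siblings the medians of the 5 lists lie between -0.055 and 0.20.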

How the data were processed

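Total RNA from sorted cells was sequenced as single-end reads. According to the study's methods, the authors trimmed reads with Reaper, aligned them with STAR (2.4.0a) to GRCz10 and assigned them to Ensembl exons with featureCounts (1.4.5-p1), which dropped ambiguous and multi-mapped reads. The deposited signal per gene was made by the authors by dividing read numbers by 1 DESeq2 (1.62) size factor per library and rounding, so count models were not used.

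The 6 columns were assigned by name, and 26237 gene identifiers matched the table of gene names. Values were not scaled further. limma (3.58.1, R 4.3.3) was fitted on log2(value + 1) with 3 groups in one fit, a mean trend and robust estimation, for genes with a mean of at least 5. The fit was tested on simulated data, but only with changes larger than those of the members, so that test does not bear on changes of their size. Ratios within libraries were compared by exact permutation tests. Standard errors from limma hold counting error and replicate differences pooled over all 3 groups, so that of adgra2 was 0.50 in every comparison. The mutant replicates therefore also enter the errors for hhex OE over siblings. With only the 4 libraries of hhex OE and siblings, the error of adgra2 was 0.30. That of mfsd2aa went the other way, from 0.38 to 0.40. Since the labels do not say that replicates came from separate clutches, p-values may measure technical spread.

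Named are the 7 members, the 3 most abundant genes of each barrier list, slc16a1b and the 3 genes most correlated with each member. Genes named outside this rule were chosen after their values were seen. Members and lists were chosen with earlier results of these data known. Coordinates are those of the table.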

Additional observations from a re-analysis of the deposited data

How the results depend on the processing

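The number of genes passing an adjusted p of 0.05 in limma, 0 in each comparison, depended on the fit. Between hhex OE and siblings it was 841 with only the 4 libraries compared, 59 with library weights, 50 after rescaling to the endothelial markers, 4 without a filter, 4 with quantile scaling and 0 to 838 with a library left out. Between hhex OE and mutants it was 85 after rescaling, 10 without a filter, 7 with library weights and 0 to 2512 with a library left out, and between mutants and siblings 0 to 13. At an unadjusted p under 0.05 there were 3135, 3675 and 711 genes in these comparisons. After rescaling, only 1 of the 50 genes and 1 of the 85 genes were higher in hhex OE. That scale moved the median of all genes to -0.85 against siblings and -0.93 against mutants.

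Some settings leave the group means as they are, so that only the call could change and not the direction. Among these are no filter, a higher minimum mean, only the libraries compared and the replicate block. Of 207 member values under the settings that keep all libraries or drop only those of the third group, 202 kept their direction and their side of the threshold. The 5 others turned, after rescaling mfsd2ab between hhex OE and siblings (-0.78) and mfsd2aa (-0.94), mfsd2ab (-0.22) and reck (-0.15) between hhex OE and mutants, and with quantile scaling mfsd2aa between hhex OE and mutants (-0.011). After rescaling, apc (-0.32), ctnnb1 (-0.47), lrp5 (-0.66), cdh5 (-0.11), cgnl1 (-0.13), tjp1a (-0.23), cav1 (-0.074), cavin2b (-0.025) and cavin1b (-0.016) turned between hhex OE and siblings, as did the list medians of Wnt signalling (-0.38), transporters (-0.27), junctions (-0.18), caveolae (-0.39) and the endothelial markers themselves (-0.020). By construction that scale sets the markers near 0.

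With a library left out, 113 of 126 member values kept direction and call. Where that library belonged to the third group, the log2 fold change could not change. Between mutants and siblings adgra2 ranged from -0.97 to 0.61, reck from -0.60 to 0.76, slc16a1a from -0.33 to 1.36, plvapa from -1.33 to 0.76 and plvapb from -1.86 to 1.02, and the number of members above both sibling libraries from 0 to 4. That number without single libraries and the mural sum without myh11a were added after seeing the data. Between hhex OE and siblings mfsd2ab ranged from -0.20 to 0.44, slc16a1b from -0.50 to 0.13, slc38a5b from -0.22 to 0.068 and foxc1b from -0.35 to 0.032. The difference in the log2 ratio of mfsd2aa to mfsd2ab ranged from -0.022 to 0.62 between mutants and siblings. That of plvapa to plvapb ranged from -1.89 to 1.44 between hhex OE and siblings, from -1.53 to 1.80 between mutants and siblings and from -0.76 to 0.035 between hhex OE and mutants.

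The replicate numbers are only numbers in the labels. The within-group differences correlated at 0.49 between mutants and siblings, -0.11 between hhex OE and siblings and -0.20 between hhex OE and mutants over 11850 genes. With the replicate block 0 genes passed in each comparison, and the member values were unchanged because the design is balanced. The lowest means among the members were those of mfsd2aa and plvapa, at 46.5 and 63.7.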
